A study of Mus musculus with 8 samples.

Results

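Levels of 8 genes of the interferon gamma and type 1 programme were followed in T cells of kidney and spleen: the cytokine genes Ifng and Tnf, the transcription factor genes Tbx21 and Stat4, and the receptor genes Il12rb1, Il12rb2, Il18r1 and Il18rap. They were taken by name from a table of 13341 genes, all 8 were present, and all 8 were among the 10845 genes tested, those that reached a level of 10 in 2 or more libraries. The groups were kidney CD8+, spleen CD8+, kidney CD4+ and spleen CD4+ T cells, with 2 libraries each. Every group came from MRL/lpr mice at 14 weeks of age. MRL/lpr mice carry the lpr mutation of the Fas death receptor gene in all cells and develop a lupus-like disease with nephritis, so all 4 groups shared the mutation and the disease background, and no healthy strain was among them. The cells were sorted for high surface CD44, a mark of T cells that have met antigen, and full-length cDNA was amplified with the SMART-Seq v4 kit for small amounts of RNA. How many mice gave a library, and whether the 2 libraries of a group came from separate mice, is not given in the sources used here, so p-values measure only the spread between these libraries, which may be technical.

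Interferon gamma is the defining cytokine of type 1 helper cells and of effector CD8+ T cells, and it acts on macrophages and on tissue cells through a receptor of a pair of chains. In type 1 cells, T-bet, the product of Tbx21, opens and drives the Ifng gene. Interleukin-12 signals through the chains encoded by Il12rb1 and Il12rb2 to STAT4, and interleukin-18 signals through the chains encoded by Il18r1 and Il18rap, and the pair of cytokines acts together on Ifng. In lupus nephritis of MRL/lpr mice, T cells gather in the kidney, and interferon gamma has been tied to the severity of the disease.

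The levels given here are the authors' normalised signal per gene, in which 1 read was worth 0.554 to 1.04 units depending on the library, and depth ran from 7477544 to 11169003 reads per library. The sorted markers matched the labels: Cd8a was at 18302 and 18556 in kidney CD8+ cells against 12159 and 12188 in spleen CD8+ cells and at most 103 in the CD4+ libraries, while Cd4 was at 1365 to 2224 in the CD4+ libraries and at most 17.8 in the CD8+ libraries. The kidney CD4+ replicates differed from each other, in opposite directions for different T cell genes. Cd3e, a chain of the T cell receptor complex, was at 5456 in replicate 1 and 637 in replicate 2, while Cd3d was at 10077 and 26729 and Cd3g at 24538 and 48406. The 7 T cell markers summed to 44022 in replicate 1 and 78518 in replicate 2, against 49283 and 52952 in spleen CD4+ cells. In CD8+ cells they summed to 115066 and 107682 in kidney against 73440 and 72901 in spleen. Of the 7, 5 had a positive log2 fold change of kidney over spleen in CD8+ cells, and 0 were called. The part of this in the differences of other genes was not tested. Over 2939 genes at or above 100 in every library, the log2 gap from replicate 1 to replicate 2 had an SD of 1.35 in kidney CD4+ cells, against 0.422 in kidney CD8+, 0.339 in spleen CD8+ and 0.334 in spleen CD4+ cells. The test used 1 spread per gene over all 4 groups. For the 8 genes it is therefore stated below where leaving out kidney CD4+ libraries changed a call. The sums of other cell types' markers differed by organ. Proximal tubule genes, 8 in all, summed to 4154 to 13637 in kidney libraries and to 0.00 to 3.88 in spleen libraries, while 7 neutrophil genes summed to 0.00 to 28.9 in kidney libraries and to 3284 to 8549 in spleen libraries.

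**Figure D1:**
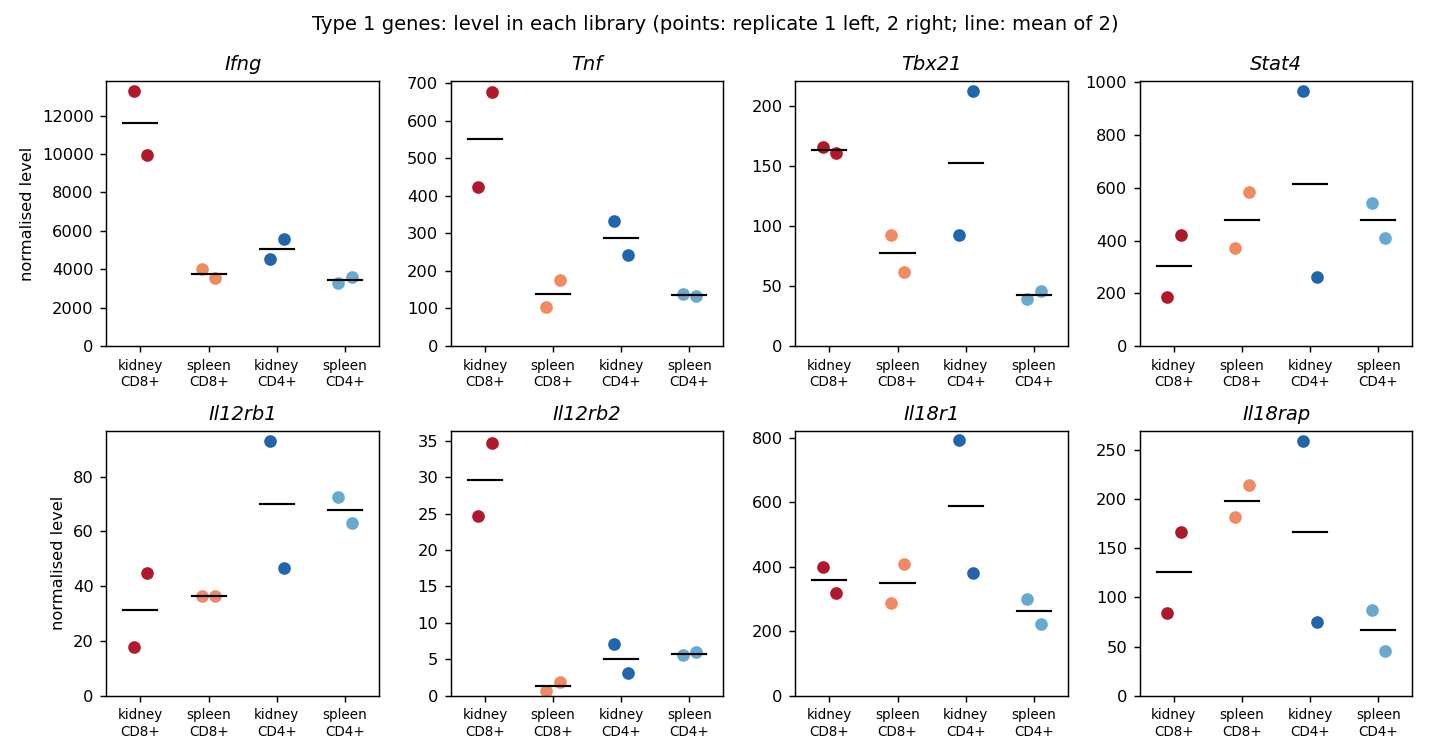
Level (authors' normalised signal, linear axis from 0) of the 8 genes in each library, by group, with replicate 1 on the left, replicate 2 on the right and a line at the mean of both. All 4 kidney points lie above all 4 spleen points for Ifng, Tnf and Tbx21, while for Stat4 and Il12rb1 the organs overlap in both cell types and the kidney CD4+ points are far apart.

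Ifng (ENSMUSG00000055170.3; mm9 chr10:117878103-117882948, plus strand) was by far the most abundant of the 8 genes and was highest in kidney CD8+ cells. Its level was 13296 and 9958 in kidney CD8+ cells against 4023 and 3522 in spleen CD8+ cells, and 4545 and 5586 in kidney CD4+ cells against 3275 and 3582 in spleen CD4+ cells. All 4 kidney libraries lay above all 4 spleen libraries, kidney CD8+ cells also lay above kidney CD4+ cells, and the spleen groups overlapped. The means were 11627 ± 2360 in kidney CD8+ against 3772 ± 354 in spleen CD8+ cells, and 5066 ± 736 in kidney CD4+ against 3429 ± 217 in spleen CD4+ cells (SD, n = 2 each). Ifng ranked 94 and 129 among all genes by level in kidney CD8+ cells against 273 and 306 in spleen CD8+ cells, and 225 and 239 in kidney CD4+ cells against 310 and 291 in spleen CD4+ cells. It held 0.170% and 0.133% of the summed signal in kidney CD8+ cells and 0.0488% to 0.0726% in the other 6 libraries. The fold change was 3.06 between kidney and spleen in CD8+ cells, a log2 fold change of 1.61 ± 0.35 (SE), and did not pass the limma test over all genes (adjusted p = 0.0752). It passed without both kidney CD4+ libraries, which enter that fit only through the pooled spread (adjusted p = 0.00168), and with the 4 CD8+ libraries alone (adjusted p = 0.0395). In CD4+ cells the log2 fold change was 0.56 ± 0.35 (adjusted p = 0.724), and 0.71 without kidney CD4+ replicate 1 (adjusted p = 0.0462). Averaged over both cell types it was 1.08 ± 0.25 (adjusted p = 0.0575). With 1 library left out this average was 0.98 to 1.19, and it passed the threshold when either kidney CD4+ library was left out. In bulk libraries such as these, fewer cells that express a gene and less RNA per cell cannot be told apart.

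Tnf (ENSMUSG00000024401.8; mm9 chr17:35336326-35338952, minus strand), which encodes the inflammatory cytokine TNF, was highest in kidney CD8+ cells, as Ifng was. In the main limma fit of all 8 libraries, Tnf was the only member called in any of the 6 comparisons. DESeq2 and library weights, which also used all 8 libraries, called further members, as given below. Its level was 424 and 677 in kidney CD8+ cells against 104 and 175 in spleen CD8+ cells, and 333 and 241 in kidney CD4+ cells against 140 and 133 in spleen CD4+ cells. The lowest kidney library was above the highest spleen library, and kidney CD8+ cells lay above kidney CD4+ cells. Averaged over both cell types, Tnf was 2.86-fold higher in kidney, a log2 fold change of 1.52 ± 0.31 (adjusted p = 0.0358). Leaving out any 1 library of the kidney CD8+, spleen CD8+ or spleen CD4+ groups ended that call, with a highest adjusted p of 0.212, and leaving out a kidney CD4+ library kept it, with a lowest of 0.00547. It was also lost with the replicate number as a block (adjusted p = 0.0645) and with library weights (adjusted p = 0.0636). Within CD8+ cells the log2 fold change was 1.98 ± 0.44 (adjusted p = 0.0805, or 0.0116 without both kidney CD4+ libraries), and within CD4+ cells it was 1.05 ± 0.44 (adjusted p = 0.507). Per kilobase of exon, the mean level over the 8 libraries was 4949 for Ifng and 170 for Tnf, and the Ifng to Tnf ratio per length lay between 18.5 and 52.7 over the libraries.

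Macrophages and natural killer cells can also make these cytokines, so their markers are given beside them. The 9 macrophage genes summed to 2379 and 1820 in kidney CD8+ cells against 849 and 1460 in spleen CD8+ cells, and 6887 and 6517 in kidney CD4+ cells against 1687 and 2265 in spleen CD4+ cells. The macrophage sum was thus higher in kidney in both cell types, and highest in kidney CD4+ cells. Of 8 tested macrophage genes, 2 rose in kidney CD8+ cells, the complement genes C1qa and C1qb, and 1 in kidney CD4+ cells, C1qb. Of all tested genes, 1.55% were called between organs in CD8+ cells and 0.959% in CD4+ cells. C1qb was at 429 and 356 in kidney CD8+ cells against 33.0 and 73.5 in spleen CD8+ cells, and 2036 and 2256 in kidney CD4+ cells against 216 and 290 in spleen CD4+ cells. Csf1r, a growth factor receptor of macrophages, was at 0.849 and 2.31 in kidney CD8+ cells against 0.00 and 3.82 in spleen CD8+ cells, and 65.5 and 84.3 in kidney CD4+ cells against 27.7 and 10.4 in spleen CD4+ cells. Adgre1, a macrophage surface protein gene, was at 1.70 and 4.63 in kidney CD8+ cells against 0.00 in both spleen CD8+ libraries, and 167 and 29.1 in kidney CD4+ cells against 4.43 and 4.31 in spleen CD4+ cells. Macrophage genes thus differed in level from each other in kidney CD8+ cells. C1qb, Csf1r and Adgre1 were each higher in the CD4+ than in the CD8+ libraries of the kidney. Of 8 tested macrophage genes 2, Cd68 and Cd14, had a positive log2 fold change of CD8+ over CD4+ there, at 0.30 and 0.38. Neither was called. Cd68 was also lower in kidney than in spleen CD4+ cells, at 258 and 485 against 559 and 518. Of 8 natural killer genes, 6 were in the table. They summed to 9152 and 8390 in kidney CD8+ cells against 9017 and 8413 in spleen CD8+ cells, and 1174 and 1753 in kidney CD4+ cells against 904 and 918 in spleen CD4+ cells. That sum, most of it Gzma, which CD8+ T cells share, did not separate the organs in CD8+ cells. Within it, Klre1 was at 470 and 505 in kidney CD8+ cells against 199 and 209 in spleen CD8+ cells, and Tyrobp was at 402 and 227 in kidney CD8+ cells against 69.4 and 88.8 in spleen CD8+ cells. Tyrobp was higher still in kidney CD4+ cells, at 525 and 964, against 267 and 234 in spleen CD4+ cells. Klrb1c went the other way in CD8+ cells, at 5.09 and 20.8 in kidney against 27.6 and 33.4 in spleen. Of the 6 tested natural killer genes, 3 had a positive fold change in CD8+ and 5 in CD4+ cells, against 49.8% and 45.6% of all tested genes. None was called in either cell type and 2, Klre1 and Tyrobp, rose in kidney over both, against 2.71% of all tested genes. Ncr1, a receptor gene of natural killer cells, was at 24.6 and 0.00 in kidney CD8+ cells against 0.00 in both spleen CD8+ libraries, and 113 and 0.00 in kidney CD4+ cells against 15.5 and 0.00 in spleen CD4+ cells. The part of such cells in the differences of Ifng and Tnf was not tested.

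The 250 bases before the start site are shown for the 4 genes whose kidney level was above the spleen level in every CD8+ library, Ifng, Tnf, Tbx21 and Il12rb2, so that members with this direction can be read side by side. None of these 4 was called there, 26.7% of all genes had the same order, and the pattern in CD4+ cells was shared by Ifng, Tnf and Tbx21 but not by Il12rb2. RefSeq promoters on build GRCm38.p6 matched 7 of the 8 genes by symbol, and each sequence runs 5′ to 3′ on the strand of its gene and ends at the base before the start. Capitals mark matches to 7 motifs that were searched on both strands. The motif of the general start machinery was the TATA box, searched as TATAAA. The T-box half-site, which T-bet and eomesodermin bind, was searched as GGTGTGA. The site of STAT factors was searched as TTCNNNGAA. The core bound by NFAT, a factor of T cell receptor signalling, was searched with an added A, as GGAAAA. The site of AP-1, another such factor, was searched as TGANTCA. The half-site of the cyclic AMP response was searched as TGACG, and an NF-kappaB consensus of 10 letters was the last of the 7. The Ifng window is chr10:118440796-118441045 (plus strand), the Tnf window chr17:35202008-35202257 (minus strand), the Tbx21 window chr11:97115332-97115581 (minus strand) and the Il12rb2 window chr6:67376189-67376438 (minus strand).
Ifng: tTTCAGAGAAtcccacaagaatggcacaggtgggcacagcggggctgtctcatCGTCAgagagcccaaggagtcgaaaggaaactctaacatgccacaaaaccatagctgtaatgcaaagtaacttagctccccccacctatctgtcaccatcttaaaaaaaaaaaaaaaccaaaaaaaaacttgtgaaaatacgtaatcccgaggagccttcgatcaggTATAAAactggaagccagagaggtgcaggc
Tnf: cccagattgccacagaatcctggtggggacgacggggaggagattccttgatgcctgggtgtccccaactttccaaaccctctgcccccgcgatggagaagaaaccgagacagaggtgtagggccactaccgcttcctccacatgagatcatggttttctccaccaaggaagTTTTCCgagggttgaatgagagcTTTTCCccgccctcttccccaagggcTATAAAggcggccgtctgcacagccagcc
Tbx21: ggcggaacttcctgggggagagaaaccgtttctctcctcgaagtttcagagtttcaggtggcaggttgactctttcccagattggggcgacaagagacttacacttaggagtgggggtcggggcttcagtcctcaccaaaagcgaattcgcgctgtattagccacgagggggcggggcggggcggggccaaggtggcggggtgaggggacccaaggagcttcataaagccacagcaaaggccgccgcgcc
Il12rb2: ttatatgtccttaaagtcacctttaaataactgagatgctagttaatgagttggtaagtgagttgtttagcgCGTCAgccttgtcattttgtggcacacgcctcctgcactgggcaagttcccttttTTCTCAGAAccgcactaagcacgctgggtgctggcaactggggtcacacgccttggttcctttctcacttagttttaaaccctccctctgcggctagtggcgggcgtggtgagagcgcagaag

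Both cytokine genes held a TATA box, at bases -30 to -25 in Ifng and -29 to -24 in Tnf, counted back from -1 as the base before the start, and 12.4% of 32851 mouse promoters held one in the same window. Ifng and Il12rb2 each held a STAT site, at -249 to -241 and at -123 to -115, against 7.02% of promoters. They also each held a cyclic AMP half-site on the opposite strand, against 17.8% of promoters. Tnf held 2 matches to the NFAT core with an added A, read on the opposite strand as TTTTCC at -78 to -73 and -55 to -50, against 20.4% of promoters. Tbx21 held none of the 7 motifs. The T-box half-site, found in 3.33% of promoters, the NF-kappaB site, found in 1.41%, and the AP-1 site, found in 6.75%, were not matched in these 4 windows. No 2 of the marked matches overlapped. A match describes letters in a window and not binding.

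Tbx21 (ENSMUSG00000001444.2; mm9 chr11:96959385-96976645, minus strand), which encodes T-bet, was higher in the kidney libraries of both cell types. Its level was 166 and 161 in kidney CD8+ cells against 92.3 and 62.1 in spleen CD8+ cells, and 92.3 and 212 in kidney CD4+ cells against 39.3 and 45.7 in spleen CD4+ cells. The organs did not overlap within either cell type, although kidney CD4+ replicate 1 and spleen CD8+ replicate 1 were nearly level, and spleen CD8+ cells lay above spleen CD4+ cells. The log2 fold change of kidney over spleen was 1.10 ± 0.53 in CD8+ cells (adjusted p = 0.531), 1.70 ± 0.53 in CD4+ cells (adjusted p = 0.285) and 1.40 ± 0.38 over both (adjusted p = 0.112). The value over both was 1.10 to 1.70 with 1 library left out, and leaving out a kidney CD4+ library changed its call. The CD4+ value rested in part on kidney replicate 2: without replicate 1 it was 2.30 (adjusted p = 0.00774), and without replicate 2 it was 1.10. Eomes, which encodes the related T-box factor eomesodermin and works beside T-bet in CD8+ cells, was not higher in kidney: the organs overlapped in CD8+ cells, and both kidney CD4+ libraries lay below both spleen CD4+ libraries. Its level was 716 and 534 in kidney CD8+ cells against 807 and 636 in spleen CD8+ cells, and 252 and 248 in kidney CD4+ cells against 367 and 335 in spleen CD4+ cells. The ratio of the Tbx21 level to the Eomes level was 0.231 and 0.302 in kidney CD8+ cells against 0.114 and 0.0976 in spleen CD8+ cells, and 0.366 and 0.857 in kidney CD4+ cells against 0.107 and 0.137 in spleen CD4+ cells. These ratios are of levels not divided by transcript length, so they compare libraries and not the amounts of the pair of transcripts. Runx3, which encodes another partner of T-bet at Ifng, was at 1387 and 1261 in kidney CD8+ cells against 1107 and 1023 in spleen CD8+ cells, and 1073 and 1509 in kidney CD4+ cells against 689 and 945 in spleen CD4+ cells.

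Stat4 (ENSMUSG00000062939.5; mm9 chr1:52043992-52164032, plus strand), which encodes the factor that carries the interleukin-12 signal, did not follow Ifng. Its level was 188 and 421 in kidney CD8+ cells against 372 and 585 in spleen CD8+ cells, and 966 and 263 in kidney CD4+ cells against 542 and 411 in spleen CD4+ cells. Neighbouring groups overlapped throughout, and the highest and the second lowest values both came from kidney CD4+ cells. Between organs the log2 fold change was -0.73 ± 0.65 in CD8+ cells (adjusted p = 0.775) and 0.10 ± 0.65 in CD4+ cells (adjusted p = 0.985). The 95% interval ran from -2.21 to 0.76 in CD8+ cells, which covers both a fall and a rise. Stat4 overlaps Gm3940 on the opposite strand, and since the kit keeps no strand, reads of the pair cannot be told apart.

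The chains of the interleukin-12 receptor behaved differently from each other. Il12rb2 (ENSMUSG00000018341.6; mm9 chr6:67241312-67326182, minus strand) encodes the signalling chain that is specific to interleukin-12 and its relative interleukin-35, and it is the chain that type 1 cells gain. Its level was 24.6 and 34.7 in kidney CD8+ cells against 0.673 and 1.91 in spleen CD8+ cells, and 7.05 and 3.12 in kidney CD4+ cells against 5.54 and 6.04 in spleen CD4+ cells. Kidney CD8+ cells stood above every other library and spleen CD8+ cells below every other, while the CD4+ groups overlapped. Behind those levels were 29 and 45 reads in kidney CD8+ cells, 1 and 2 reads in spleen CD8+ cells, 10 and 3 reads in kidney CD4+ cells, and 10 and 7 reads in spleen CD4+ cells. The summed reads per depth were 25.2 times higher in kidney than in spleen CD8+ cells, with an exact 95% interval of 8.31 to 125 that covers counting error only. On the log2(level + 1) scale, which understates changes of low genes, the log2 fold change was 3.78 ± 0.93 and was not called (adjusted p = 0.113). Without both kidney CD4+ libraries it was called (adjusted p = 0.0397). In CD4+ cells the log2 fold change was -0.24 ± 0.93 (adjusted p = 0.967).

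Il12rb1 (ENSMUSG00000000791.7; mm9 chr8:73332348-73345323, plus strand) encodes the chain that the receptors of interleukin-12 and interleukin-23 share. Its level was 17.8 and 44.7 in kidney CD8+ cells against 36.4 and 36.3 in spleen CD8+ cells, and 93.0 and 46.8 in kidney CD4+ cells against 72.6 and 63.0 in spleen CD4+ cells. The organs overlapped in both cell types, and CD8+ libraries lay below CD4+ libraries in each organ. The log2 fold change between organs was -0.35 ± 0.65 in CD8+ cells (adjusted p = 0.904) and -0.03 ± 0.65 in CD4+ cells (adjusted p = 0.995). Per kilobase of exon, the Il12rb1 to Il12rb2 ratio was 0.956 and 1.70 in kidney CD8+ cells against 71.3 and 25.1 in spleen CD8+ cells, and 17.4 and 19.8 in kidney CD4+ cells against 17.3 and 13.8 in spleen CD4+ cells. The ratio was thus lowest in kidney CD8+ cells, at near 1 in replicate 1 but 1.70 in replicate 2. These kidney CD8+ ratios rest on 21 and 58 reads of Il12rb1 and on 29 and 45 reads of Il12rb2. The spleen CD8+ ratios rest on 1 and 2 reads of Il12rb2. Jak2, a kinase bound to Il12rb2, was at 184 and 130 in kidney CD8+ cells against 93.6 and 64.9 in spleen CD8+ cells. In CD4+ cells Jak2 was at 207 and 216 in kidney against 144 and 98.3 in spleen. The genes of the ligand itself, Il12a and Il12b, which dendritic cells and macrophages make, had reads only in spleen CD4+ replicate 1, at 9.42 and 5.54.

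Il18r1 (ENSMUSG00000026070.8; mm9 chr1:40522397-40557699, plus strand) encodes the chain that binds interleukin-18, and Il18rap (ENSMUSG00000026068.5; mm9 chr1:40572207-40608550, plus strand) encodes the accessory chain needed to signal. Il18rap starts 14507 bases after the end of Il18r1. Il18r1 was at 400 and 319 in kidney CD8+ cells against 288 and 410 in spleen CD8+ cells, and 794 and 382 in kidney CD4+ cells against 301 and 223 in spleen CD4+ cells. Kidney CD4+ cells lay above spleen CD4+ cells and the CD8+ organs overlapped. The log2 fold change of Il18r1 was 0.06 ± 0.45 in CD8+ cells (adjusted p = 0.983) and 1.08 ± 0.45 in CD4+ cells (adjusted p = 0.506), with 1.61 without kidney CD4+ replicate 2 (adjusted p = 0.0450). Il18rap was at 84.0 and 167 in kidney CD8+ cells against 182 and 214 in spleen CD8+ cells, and 259 and 74.9 in kidney CD4+ cells against 87.0 and 45.7 in spleen CD4+ cells. It was the only member whose kidney CD8+ libraries both lay below the spleen CD8+ libraries, and the CD4+ organs overlapped. Its log2 fold change was -0.73 ± 0.67 in CD8+ cells (adjusted p = 0.784) and 1.13 ± 0.67 in CD4+ cells (adjusted p = 0.704). Per kilobase of exon, the Il18r1 to Il18rap ratio lay between 2.23 and 7.20, so on this scale Il18r1 RNA was the more abundant in all 8 libraries. The length joins the exons of all annotated transcripts, 4 for each gene, so the ratio depends on which are used. Protein was not measured. Il18, the gene of the ligand, was at 0.00 and 11.6 in kidney CD8+ cells against 12.8 and 11.5 in spleen CD8+ cells, and 59.2 and 51.0 in kidney CD4+ cells against 62.1 and 40.5 in spleen CD4+ cells. Myd88, the adaptor of this receptor, was at 38.5 in kidney CD4+ replicate 2 and at 331 to 546 in the other 7 libraries.

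Between kidney and spleen CD8+ cells, 0 of the 8 members were called by limma, against 1.55% of all tested genes. At an unadjusted p below 0.05 there were 3 members (Ifng, Tnf and Il12rb2), against 10.6% of genes. On reads recovered from the levels, edgeR called 0 and DESeq2 called the same 3, when 99 genes (0.913%) and 486 genes (4.48%) were called. Without both kidney CD4+ libraries limma called these 3 as well, of 745 genes (6.87%) called in place of 168. The groups did not overlap for 4 members higher in kidney (Ifng, Tnf, Tbx21 and Il12rb2), against 26.7% of genes, and for 1 lower (Il18rap), against 24.4%. The median log2 fold change of the members was 0.58, and that of all tested genes was 0.00.

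Between kidney and spleen CD4+ cells limma called 0 members, against 0.959% of genes. At an unadjusted p below 0.05 there were 3 (Tbx21, Il18r1 and Tnf), against 9.11% of genes, and edgeR and DESeq2 called 0. The groups did not overlap for 4 members higher in kidney (Ifng, Tnf, Tbx21 and Il18r1), against 16.3% of genes, and for 0 lower, against 15.6%. The members' median log2 fold change was 0.80, and that of all genes was -0.08. Leaving out kidney CD4+ replicate 1 gave 2 calls, Ifng and Tbx21, when 2331 genes or 21.5% of all tested were called. Leaving out replicate 2 gave 1, Il18r1, when 299 genes or 2.76% were called. The replicates of that group differed in opposite ways for different members: the log2 difference of replicate 1 minus replicate 2 was 1.87 for Stat4, 1.77 for Il18rap, 1.05 for Il18r1, 0.98 for Il12rb1 and 0.97 for Il12rb2, and -1.19 for Tbx21.

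Over both cell types together, 1 member rose in kidney, Tnf, against 2.71% of genes called higher, and 0 fell, against 0.664%. At an unadjusted p below 0.05 there were 4 members (Tnf, Ifng, Tbx21 and Il12rb2), all higher in kidney, against 14.2% of genes. edgeR also called 1, and DESeq2 called 3 (Tnf, Ifng and Tbx21), when 336 genes (3.10%) and 789 genes (7.28%) were called. All 4 kidney libraries lay above all 4 spleen libraries for 3 members (Ifng, Tnf and Tbx21), against 5.84% of genes, and below for 0, against 3.60%.

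**Figure D2:**
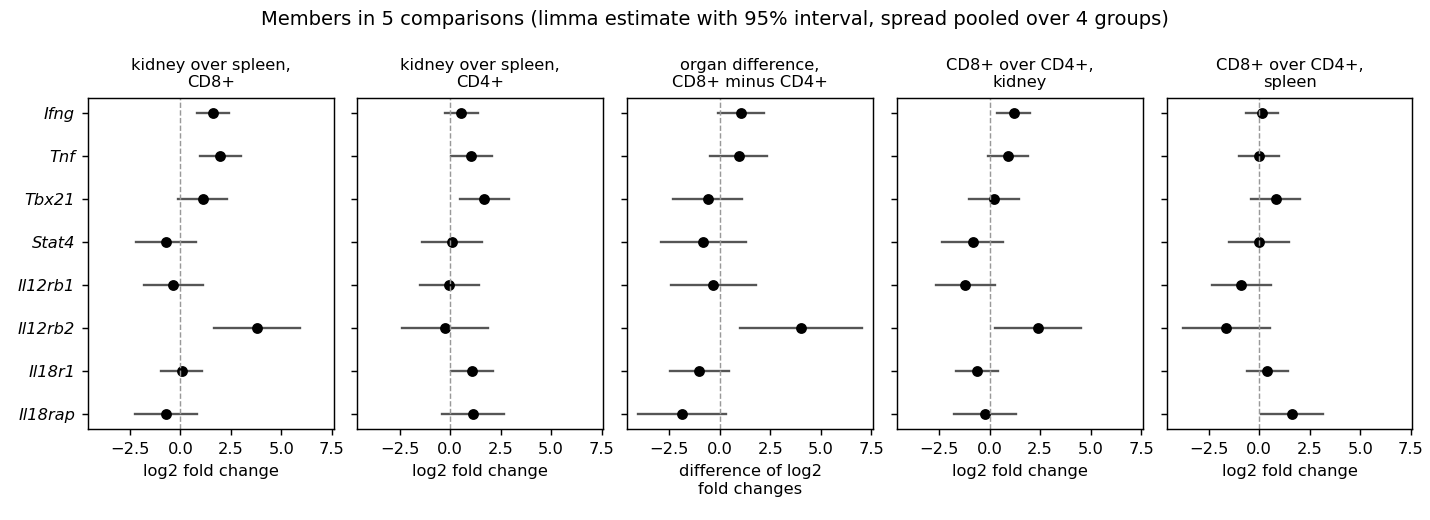
Log2 fold change (points) with its 95% interval (lines) of each member in 5 comparisons, from limma with the spread pooled over the 4 groups. In CD8+ cells the intervals of Ifng, Tnf and Il12rb2 lie above 0 for kidney over spleen, and of the differences between the organ effects of CD8+ and CD4+ cells that of Il12rb2 alone does not cross 0.

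Whether the organs differed more in CD8+ than in CD4+ cells was tested as the difference of the log2 fold changes. None of the 8 members passed, with all adjusted p at 0.999, against 0.00% of genes called. Both edgeR and DESeq2 called 0 members, when 0 genes and 12 genes (0.111%) were called. No member was called with 1 library left out, although other genes were called when either kidney CD4+ library was left out. At an unadjusted p below 0.05 there was 1 member, Il12rb2, against 3.34% of genes. Its difference was 4.01 ± 1.32 with a 95% interval of 0.997 to 7.03 (unadjusted p = 0.0150). For Ifng the difference was 1.06 ± 0.50, with an interval of -0.08 to 2.19, and for Il18rap it was -1.86 ± 0.95, with an interval of -4.03 to 0.31.

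Between CD8+ and CD4+ cells of the kidney, 0 members were called by limma, edgeR and DESeq2, against 0.203% of genes by limma. At an unadjusted p below 0.05 there were 2 members, Ifng and Il12rb2, against 8.51% of genes. The log2 fold change of CD8+ over CD4+ was 1.19 ± 0.35 for Ifng (adjusted p = 0.351) and 2.39 ± 0.93 for Il12rb2 (adjusted p = 0.533). Ifng passed without kidney CD4+ replicate 1 (adjusted p = 0.0146) and without replicate 2 (adjusted p = 0.00973), when Stat4 also passed, at -1.78 (adjusted p = 0.0454). Under these settings 1180 genes (10.9%) and 1351 genes (12.5%) were called, in place of 22. The groups did not overlap for 3 members higher in CD8+ cells (Ifng, Tnf and Il12rb2), against 13.8% of genes, and for 1 lower (Il12rb1), against 14.1%.

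In the spleen 0 members were called between CD8+ and CD4+ cells by limma, edgeR and DESeq2, against 0.360% of genes by limma, and 1 had an unadjusted p below 0.05, Il18rap, against 6.43% of genes. For Il18rap the log2 value of CD8+ over CD4+ was 1.63 ± 0.67 (adjusted p = 0.712), and library weights gave it a call (adjusted p = 0.0252), when 666 genes or 6.14% were called in place of 39. The groups did not overlap for 2 members higher in CD8+ cells (Tbx21 and Il18rap), against 19.8% of genes, and for 2 lower (Il12rb1 and Il12rb2), against 26.0%. Ifng and Tnf were close in the spleen, at 0.14 ± 0.35 and -0.02 ± 0.44, and the 95% interval of Ifng ran from -0.67 to 0.94.

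**Figure D3:**
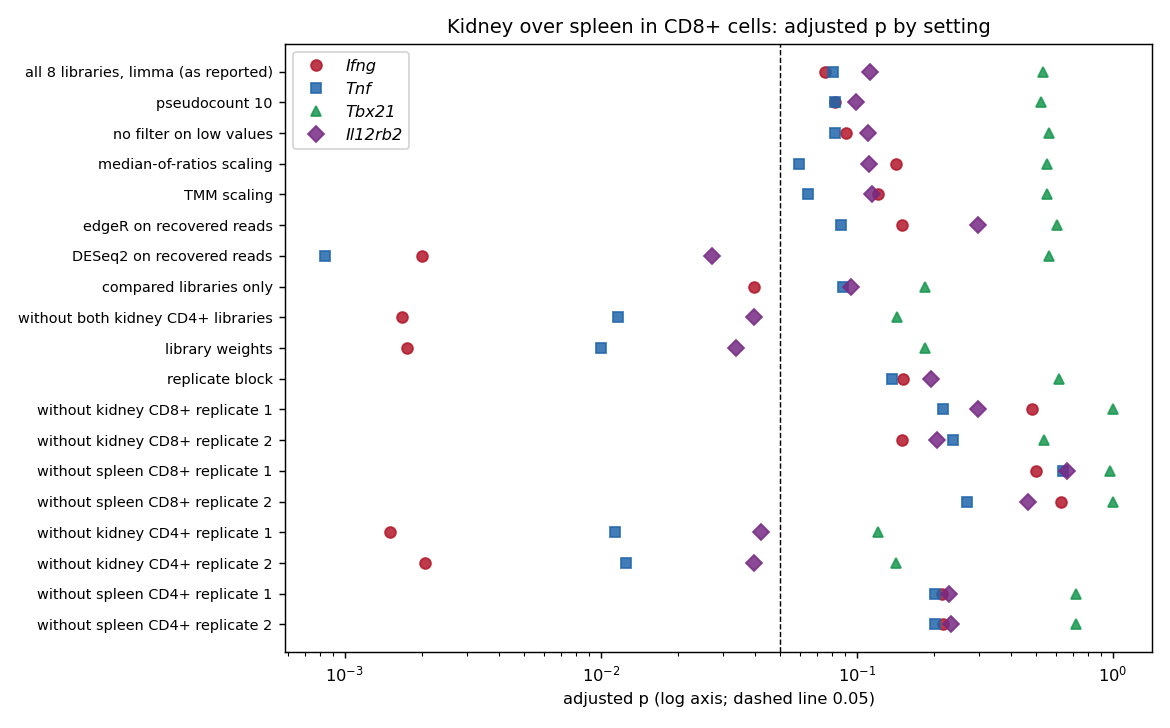
Adjusted p of 4 members for kidney over spleen in CD8+ cells under each setting (log axis, dashed line at 0.05). Ifng, Tnf and Il12rb2 lie left of the line with DESeq2, with library weights and whenever a kidney CD4+ library is left out, Ifng alone also with the compared libraries only, and Tbx21 lies right of it throughout.

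The other genes of the pathway were taken from lists. Beside the counts called in them stand the shares of all tested genes called. Between organs these were 1.55% in CD8+ cells, 0.959% in CD4+ cells and, over both, 2.71% higher and 0.664% lower. Between CD8+ and CD4+ cells they were 0.203% in kidney and 0.360% in spleen. Of 17 tested type 1 effector genes, 1 rose in kidney CD8+ cells, Ccl3, which encodes a chemokine that draws macrophages and T cells. Its level was 19170 and 11627 in kidney CD8+ cells, against 2951 and 2051 in spleen CD8+ cells, a log2 fold change of 2.60 ± 0.50 (adjusted p = 0.0453). In that list 15 of 17 genes had a positive fold change, against 49.8% of all tested genes, and the median of 1.09 stood beside 0.00 for all tested genes. Over both cell types 2 effector genes rose, Ctsw, a cathepsin of cytotoxic cells, at 1.53 ± 0.27 (adjusted p = 0.0167), and Ccl3, at 1.98 ± 0.35 (adjusted p = 0.0186), and in CD4+ cells 0 passed, with a median of 0.47 beside -0.08. Between CD8+ and CD4+ cells of the kidney 1 effector gene was higher, Gzmb, which encodes granzyme B, at 3.25 ± 0.34 (adjusted p = 0.0107), and in the spleen 1 was lower, Lta, which encodes lymphotoxin alpha and lies beside Tnf, at -2.57 ± 0.36 (adjusted p = 0.0301). Of 14 tested type 1 transcription factor genes 0 passed in any of the comparisons, with medians between organs of 0.19 in CD8+ cells and 0.11 in CD4+ cells. At an unadjusted p below 0.05 there were 3 in CD8+ cells, against 10.6% of all tested genes, and 0 in CD4+ cells, against 9.11%.

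On the side of the cytokine receptors, 1 of 18 tested genes of the interleukin-12 and interleukin-23 pathway rose in kidney CD8+ cells. It was Cish, which encodes an inhibitor of cytokine signalling that interleukin-2 and STAT5 also induce, at 1243 and 1452 in kidney CD8+ cells against 146 and 107 in spleen CD8+ cells, a log2 fold change of 3.41 ± 0.56 (adjusted p = 0.0254). The median of that list was -0.36 in CD8+ cells and -0.03 in CD4+ cells, where 0 passed. Il23r, the partner of Il12rb1 in the interleukin-23 receptor, had 2 reads in kidney CD8+ cells, 15 in kidney CD4+ cells and 0 in spleen cells. Of 21 tested genes of interleukin-18 and interleukin-1 receptor signalling 0 passed between organs, with medians of -0.12 in CD8+ and -0.17 in CD4+ cells, and in the spleen 1 was lower in CD8+ than in CD4+ cells, the decoy receptor gene Il1r2, at -6.91 ± 0.86 (adjusted p = 0.0193). Of 24 tested genes of TNF receptor signalling 1 rose in kidney, Tnfrsf1b, which encodes TNF receptor 2 of activated T cells. Tnfrsf1b was at 1116 and 906 in kidney CD8+ cells against 214 and 174 in spleen CD8+ cells, and 2228 and 1126 in kidney CD4+ cells against 749 and 440 in spleen CD4+ cells. Its log2 fold change was 2.38 ± 0.44 in CD8+ cells (adjusted p = 0.0405) and 1.92 ± 0.31 over both cell types (adjusted p = 0.0127), while Tnfrsf1a, which encodes TNF receptor 1, was at 7.28 to 156 over all libraries.

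The receptor and target genes of interferon gamma gave no call between organs. Of 29 tested genes of its receptor and targets, 0 were called between organs in CD8+ cells, in CD4+ cells or over both, and 10 had a positive fold change in CD8+ and 8 in CD4+ cells, against 49.8% and 45.6% of all tested genes. The medians were -0.33 in CD8+ and -0.50 in CD4+ cells, beside 0.00 and -0.08 for all tested genes. At an unadjusted p below 0.05 the list had 1 gene higher and 2 lower in CD8+ cells, against 10.6% of all tested genes. In CD4+ cells it had 2 higher and 0 lower, against 9.11%, and over both 2 higher and 4 lower, against 14.2%. Ifngr1, the binding chain of the receptor, was at 3214 and 4630 in kidney CD8+ cells against 2432 and 3687 in spleen CD8+ cells, and 10297 and 843 in kidney CD4+ cells against 1963 and 1559 in spleen CD4+ cells. Ifngr2, the chain that limits the response of T cells, was low everywhere, at 0.849 and 3.85 in kidney CD8+ cells against 10.1 and 19.1 in spleen CD8+ cells, and 2.82 and 5.20 in kidney CD4+ cells against 15.5 and 21.6 in spleen CD4+ cells. All 4 kidney libraries had less Ifngr2 than all 4 spleen libraries, an order found in 3.60% of all tested genes. Its log2 fold change over both cell types was -2.15 ± 0.68 (adjusted p = 0.179). The kidney values rest on few reads, since 1 read was worth 0.554 to 1.04 units. Cxcl10, a chemokine gene that interferon gamma induces, was at 118 and 183 in kidney CD8+ cells against 41.7 and 21.96 in spleen CD8+ cells, a log2 fold change of 2.24 ± 0.50 (adjusted p = 0.0810). In the spleen 1 gene of the list was lower in CD8+ than in CD4+ cells, Serpina3g, at -4.41 ± 0.66 (adjusted p = 0.0398).

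Factors and cytokines of other lineages were counted beside them. Of 11 tested genes 0 were called between organs in CD8+ cells and 1 rose in kidney CD4+ cells, Il17a, the type 17 cytokine gene, with 290 reads in the kidney CD4+ and 0 in the spleen CD4+ libraries. Over both cell types 2 rose, Rora, at 1.81 (adjusted p = 0.00999), and Il17a. Foxp3, the factor of regulatory T cells, was lower in CD8+ than in CD4+ cells in kidney (-7.00, adjusted p = 0.00715) and spleen (-6.74, adjusted p = 0.00598), and Maf in spleen (-4.08, adjusted p = 0.00737). Each call of a single gene in these lists was lost when some 1 library was left out. Ccl3 and Cish, Tnfrsf1b within CD8+ cells, Ctsw, Gzmb, Lta and Serpina3g kept it only when the library left out was a kidney CD4+ one. Tnfrsf1b over both cell types kept it without spleen CD4+ replicate 1 as well, and Il1r2 without kidney CD8+ replicate 2 as well. Rora over both cell types, and Il17a, lost it without any 1 of the spleen libraries, Maf without any 1 of them too, and Foxp3 in spleen likewise, while Foxp3 in kidney lost it without kidney CD8+ replicate 1 or either spleen CD4+ replicate. The highest adjusted p was 0.447 for Ccl3, 0.269 for Cish, 0.388 for Tnfrsf1b in CD8+ cells, 0.149 for Ctsw over both cell types, 0.266 for Gzmb, 0.453 for Lta, 0.326 for Il1r2, 0.523 for Serpina3g and 0.257 for Il17a in CD4+ cells. With edgeR the adjusted p within CD8+ cells was 0.0950 for Ccl3 and 0.0577 for Tnfrsf1b, and for Il17a in CD4+ cells it was 0.0668. Ccl3 within CD8+ cells also missed the threshold with no filter on low values (adjusted p = 0.0541) and with median-of-ratios or TMM scaling (adjusted p = 0.0773 and 0.0702). With the 4 kidney libraries alone it was 0.782 for Gzmb and Foxp3.

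**Figure D4:**
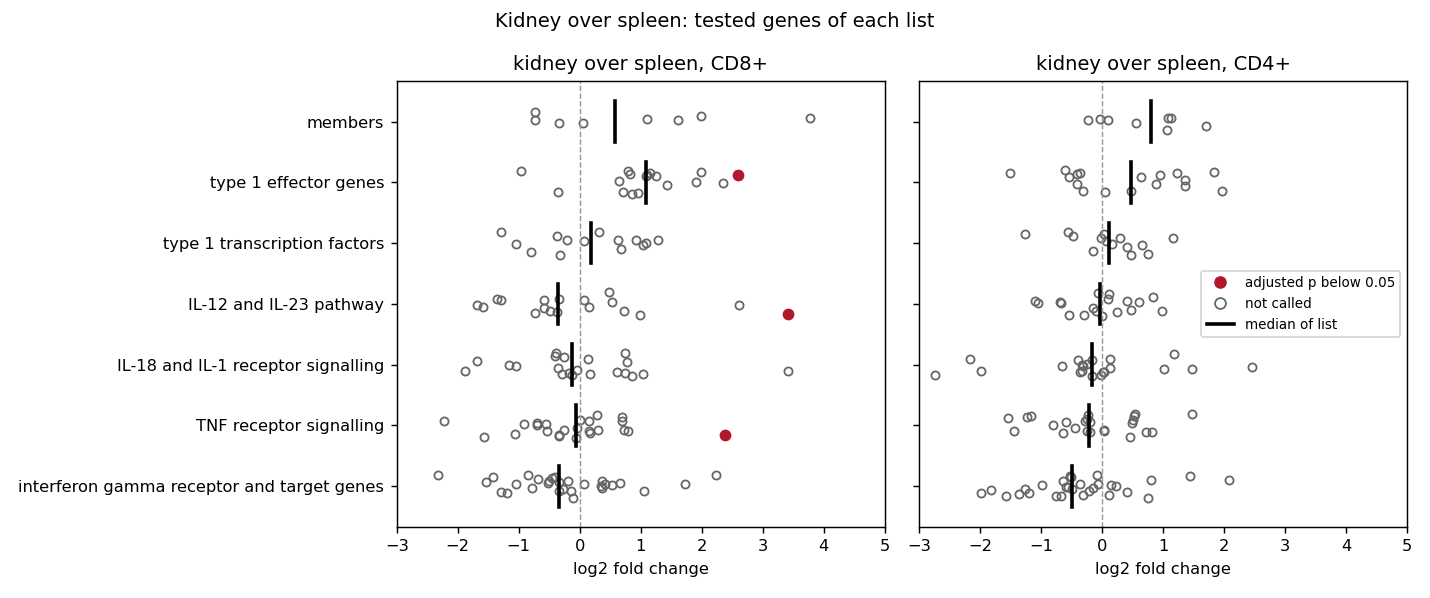
Log2 fold change of kidney over spleen for the tested genes of each list in CD8+ cells (left) and CD4+ cells (right), with filled points for genes called at an adjusted p below 0.05, open points for the rest and a bar at the median of the list. The effector genes have medians of 1.09 in CD8+ and 0.47 in CD4+ cells, and the interferon gamma receptor and target genes have medians of -0.33 and -0.50.

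The pattern of Ifng over the 8 libraries was set against the other 4690 genes with a mean level of 100 or more, as the root mean square difference of log2(level + 1) after each gene was centred on its own mean. The 5 closest genes were Wbp1 (0.229), Nudt9 (0.237), Sorl1 (0.242), Lgals3, which encodes galectin-3 (0.252), and 5830432E09Rik (0.253). Among the members Tnf was the closest to Ifng, at 0.477, with 121 genes closer, followed by Tbx21, at 0.519, with 203 genes closer. Stat4 and Il12rb1 were the farthest, at 1.23 and 1.24, with 3788 and 3806 genes closer. For Tbx21 the 5 closest genes were Ostf1 (0.182), Gng2 (0.312), Cd52 (0.316), Ubald2 (0.353) and Lamp1 (0.363), and Ifng was the closest member, with 65 genes closer. These distances use the same 8 libraries, and the split between the kidney CD4+ replicates enters them: Ostf1 was at 241 and 572 there, and Tbx21 at 92.3 and 212.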

How the data were processed

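RNA-seq libraries of sorted T cells (4 groups of 2 libraries) were aligned to mouse build mm9, as stated per the labels. The submitters' processing notes list STAR 2.5.3 and TopHat2 2.1.0. Which of these made the values, and how genes were counted, with what strand setting and annotation, is not given in the sources used here. Signal values deposited by the authors are normalised levels per gene in 1 table of 8 library columns, with 0 columns left unused. Each deposited value was a whole multiple of a step fixed per library, and dividing by it gave whole reads for 100% of values (tolerance 1e-06), used for edgeR 4.0.16 and DESeq2 1.42.0 as alternatives. The table was expected to hold normalised counts, so the main test was limma 3.58.1 (R 4.3.3), fitted to log2(level + 1): means of the 4 groups, empirical Bayes with trend, 8.48 degrees of freedom, 2-sided, Benjamini-Hochberg over 10845 genes within each of 6 comparisons, called below 0.05. Scripts were tested on simulated data.

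Positions and exon lengths came from a gene annotation of the mm9 build, and promoter sequences from RefSeq on GRCm38.p6, which were not mixed. All 8 members were named with every library's value. Of each list up to 4 genes with the smallest adjusted p were named, and partners of a receptor or ligand pair were named whatever their p. Csf1r, Gzma, Cd68 and Cd14 were chosen after their values were seen. The lists overlap in a few genes, and the 6 comparisons share libraries. The members, the lists and the rules were chosen with earlier results of these data known. Alternatives were another pseudocount (10), no filter on low values, 2 other scalings, both count tests, the compared libraries only, no kidney CD4+ libraries, library weights, a replicate block and each library left out. Intervals on reads cover counting error only. Hlx, Twist1, Zfp683, Il23a, Il33, Irak3, Il5, Il13, Klra8, Klra4, Pax5 and the gamma delta T cell genes of the lists were not analysed here, and some items are not reported here. B cell genes of the marker list, 4 of 5 in the table, summed to 182 to 247 in kidney and 368 to 978 in spleen libraries, and 4 erythroid genes to 8.46 to 170 in kidney and 7307 to 13188 in spleen libraries.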

Additional observations from a re-analysis of the deposited data

Results flagged for a closer look

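Il12rb2 was marked for a closer look because its CD8+ and CD4+ libraries were apart in opposite directions in kidney and spleen. In kidney both CD8+ libraries lay above both CD4+ libraries (24.6 and 34.7 against 7.05 and 3.12). In spleen both CD8+ libraries lay below both CD4+ libraries (0.673 and 1.91 against 5.54 and 6.04). The log2 fold change of kidney over spleen was 3.78 in CD8+ and -0.24 in CD4+ cells, a difference of 4.01 ± 1.32 (unadjusted p = 0.0150). Over all 10845 genes the adjusted p was 0.999, and no adjusted p of the alternatives was below 0.111. The difference was 1.88 with a pseudocount of 10 and stayed above 0 in all 16 alternatives. The difference rests on 74 reads in kidney CD8+ and 3 reads in spleen CD8+ libraries. On the CD4+ side it rests on 10 and 3 reads in the kidney and 10 and 7 reads in the spleen libraries.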

How the results depend on the processing

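The count of members called between organs in CD8+ cells, 0, was 3 with DESeq2, 3 with library weights, 3 without both kidney CD4+ libraries and 1 with the compared libraries only, and 0 to 3 with 1 library left out, with 3 without either kidney CD4+ replicate. In CD4+ cells the count of 0 was 0 to 2 with 1 library left out. Over both cell types the count of 1 was 3 with DESeq2 and 0 to 3 with 1 library left out, and it was 0 without any 1 library outside the kidney CD4+ group. CD8+ against CD4+ cells gave 0 to 2 in kidney with 1 library left out, and 1 in spleen with library weights. Of all tested genes, 4.48% were called between organs in CD8+ cells with DESeq2 and 5.32% with library weights. The share was 6.87% without both kidney CD4+ libraries and 1.65% with the compared libraries only. The number of all genes called also changed with the library left out, as given below. The cause of these changes was not tested. A group with 1 library left was assumed to vary like the others.

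Same-numbered libraries did not deviate together (correlation of replicate differences -0.155 to 0.0559), so the numbers were not taken to pair the samples. With the replicate block the count over both cell types was 0 in place of 1, and the counts in the other 5 comparisons did not move. Among the listed genes the block ended the calls of Ccl3 between organs in CD8+ cells (adjusted p = 0.0905), Il17a in CD4+ cells (0.0529), and Lta and Serpina3g between spleen CD8+ and CD4+ cells (0.0756 and 0.0655).

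Of 816 alternative values of 48 log2 fold changes of members, 744 kept direction and side of the threshold, 29 passed it, 8 no longer passed and 35 changed sign, all 35 of values that were not called. With other scalings or count tests, Tnf between CD8+ and CD4+ spleen cells (-0.017) was 0.040 with median-of-ratios factors, 0.029 with TMM, 0.063 with edgeR and 0.075 with DESeq2, and Stat4 there (-0.016) was 0.041, 0.029, 0.047 and 0.062. Il12rb1 between organs in CD4+ cells (-0.033) was 0.012 with edgeR and 0.040 with DESeq2. With 1 library left out, signs changed between organs in CD8+ cells for Il12rb1 (-0.99 to 0.29) and Il18r1 (-0.20 to 0.31), and in CD4+ cells for Stat4 (-0.84 to 1.03), Il12rb1 (-0.52 to 0.45) and Il12rb2 (-0.72 to 0.25). Over both cell types they changed for Stat4 (-0.78 to 0.15), Il12rb1 (-0.51 to 0.13) and Il18rap (-0.24 to 0.64), and for the difference of organ effects for Stat4 (-1.76 to 0.11) and Il12rb1 (-0.95 to 0.33). Between CD8+ and CD4+ cells they changed in kidney for Tbx21 (-0.38 to 0.82), Stat4 (-1.78 to 0.094) and Il18rap (-1.12 to 0.65), and in spleen for Tnf (-0.39 to 0.36) and Stat4 (-0.34 to 0.31).

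With DESeq2 the genes called between organs numbered 486 in place of 168 in CD8+ cells, 352 in place of 104 in CD4+ cells and 789 in place of 366 over both, and without kidney CD4+ replicate 1 they numbered 737, 2331 and 2749. At 1 and 2 reads in its libraries, Il12rb2 in spleen CD8+ cells is near the limit of this depth.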
